A study of Rattus norvegicus with 24 samples.

Results

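Most of the genes listed here as airway secretory encode proteins that the lining of the conducting airways releases into the airway fluid. The 9 genes listed were the secretoglobins Scgb1a1, Scgb3a1 and Scgb3a2, the BPI-fold genes Bpifa1 and Bpifb1, and the mucin genes Muc5b, Muc5ac, Muc1 and Muc4. They were found by matching the accession of each probe to a gene symbol through the RefSeq gene table. Of the 9, 5 genes had a matched probe among the 15443 symbols on the array, and all 5 were among the 21255 genes or unnamed probes tested. Muc5b, Muc5ac, Muc1 and Muc4 had no match and were not analysed here.

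Whole lung RNA of 24 Fischer-344 rats, an inbred strain, was measured on one-colour Agilent arrays, with 1 array for each rat. The rats were 7 to 8 weeks old and inhaled hexanal, a volatile aldehyde, for 4 hours on 5 days of each week. The control group breathed filtered clean air, and the low-, middle- and high-dose groups breathed hexanal at 600, 1000 and 1500 ppm, with 3 males and 3 females in each group of 6. The sample titles give these doses in ppm, as do the study's methods, while other label text gives the same target concentrations in mg/m3. The labels give an exposure of 5 weeks, whereas the study's methods give a shorter exposure. The dose in ppm is used here as the name of each group. Nothing else differed between the groups by their labels, and no transgene or second agent was used.

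Levels are log2 processed signals minus the 75th percentile of the same array, so a level of 0 equals that percentile and a difference of 1 is a doubling. Each gene was read by 1 probe (A_42_P802424 for Scgb1a1, A_64_P020044 for Scgb3a1, A_44_P515417 for Scgb3a2, A_44_P993051 for Bpifa1 and A_64_P074741 for Bpifb1), which was well above background on 24 of 24 arrays and never saturated. The 75th percentile of signal ranged from 1700.8 to 3132.71 between arrays, and 70.66% to 81.74% of probes on an array were well above background. Among markers of lung tissue, Sftpc, Sftpb, Sftpa1, Lamp3 and Napsa of alveolar type II cells and Ager, Hopx, Pdpn and Aqp5 of alveolar type I cells were well above background on 24 of 24 arrays, and Rtkn2 of type I cells on 5. The arrays lay on 6 slides of 4, each slide holding 1 sex. The control rats shared slides only with 600 ppm rats, so slide and dose could be separated only in part, and differences at 1000 and 1500 ppm are given with slide as a fixed block as well. In bulk tissue, fewer cells of a type and less RNA per cell cannot be told apart.

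Secretoglobins are small secreted proteins. Scgb1a1, the club cell secretory protein, is the classic product of the club cells of the bronchioles, and Scgb3a2 is a further club cell secretoglobin. Scgb3a1 is secreted mostly by cells of the larger airways. Bpifa1, also called SPLUNC1, and Bpifb1, also called LPLUNC1, belong to the family of bactericidal/permeability-increasing fold proteins that take part in the defence of the airway surface. Agr2, Clca1 and Foxa3 are known from mucus-producing goblet cells.

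The 250 bases before the annotated start of 4 of these genes are shown because 3 of them, Scgb3a1, Bpifa1 and Bpifb1, varied together between rats, while Scgb1a1 had the smallest spread of the 5. The sequences are those of RefSeq for the build GRCr8, written 5′ to 3′ on the strand of the gene. Scgb1a1 lies at chr1:215409687-215409936 on the minus strand, and the other windows are on the plus strand at chr10:34468916-34469165 (Scgb3a1), chr3:163087715-163087964 (Bpifa1) and chr3:163132901-163133150 (Bpifb1). The windows of Bpifa1 and Bpifb1 start 45.2 kb apart. Capitals mark every match to 4 motifs, searched on both strands, and no matches overlapped.
Scgb1a1: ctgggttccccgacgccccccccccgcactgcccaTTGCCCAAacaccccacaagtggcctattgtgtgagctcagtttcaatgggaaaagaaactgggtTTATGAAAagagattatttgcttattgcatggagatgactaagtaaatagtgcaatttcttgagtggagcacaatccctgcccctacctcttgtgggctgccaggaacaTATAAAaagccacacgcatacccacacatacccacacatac
Scgb3a1: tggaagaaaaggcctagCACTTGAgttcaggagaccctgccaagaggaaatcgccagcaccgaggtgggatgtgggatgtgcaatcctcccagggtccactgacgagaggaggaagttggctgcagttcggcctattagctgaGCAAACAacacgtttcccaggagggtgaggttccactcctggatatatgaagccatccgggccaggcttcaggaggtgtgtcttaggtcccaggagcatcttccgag
Bpifa1: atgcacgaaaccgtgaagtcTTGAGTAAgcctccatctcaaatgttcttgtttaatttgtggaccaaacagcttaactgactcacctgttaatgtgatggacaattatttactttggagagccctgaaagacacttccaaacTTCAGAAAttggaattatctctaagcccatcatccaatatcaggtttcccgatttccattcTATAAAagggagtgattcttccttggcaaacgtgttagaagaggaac
Bpifb1: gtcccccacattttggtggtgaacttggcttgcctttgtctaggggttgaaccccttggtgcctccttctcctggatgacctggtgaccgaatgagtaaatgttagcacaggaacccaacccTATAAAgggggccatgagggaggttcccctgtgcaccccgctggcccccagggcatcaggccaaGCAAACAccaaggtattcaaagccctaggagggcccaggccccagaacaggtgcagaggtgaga

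The TATA box was searched as TATAAA and was present in 12.9% of 33469 RefSeq promoter windows of the same length. It lay 41 to 36 bases before the start in Scgb1a1, 47 to 42 bases in Bpifa1 and 128 to 123 bases in Bpifb1. The forkhead motif, searched as TGTTTNC, was present in 18.3% of windows and was matched in Scgb3a1 (107 to 101 bases before the start) and in Bpifb1 (64 to 58 bases), in both on the opposite strand as GCAAACA. The NK2 homeobox motif TNAAGTG, present in 9.89% of windows, was matched once, in Scgb3a1 at 233 to 227 bases. The C/EBP motif TTNNGNAA, present in 37.2% of windows, had 2 matches each in Scgb1a1 and Bpifa1 and 1 match in the window of Scgb3a2, which is not printed. No motif was shared by Scgb3a1, Bpifa1 and Bpifb1. These matches are a description of letters and no binding was measured.

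Scgb1a1 held a narrow range in every group. Its level had a median of 6.95 in control rats (6.79 to 7.23), 6.8 at 600 ppm (6.6 to 7.02), 6.87 at 1000 ppm (6.79 to 7.22) and 6.77 at 1500 ppm (6.6 to 7.2). The ranges overlapped at every dose, although 3 of 6 rats at 600 ppm and 4 of 6 at 1500 ppm were below every control rat. Scgb3a2 had a median level of 5.42 in control rats (4.92 to 5.79), 5.69 at 600 ppm (5.26 to 5.96), 5.91 at 1000 ppm (5.57 to 6.23) and 5.65 at 1500 ppm (5.29 to 6.35). The middle-dose rats were the highest as a group, with 3 of 6 above every control rat, all of them female.

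Scgb3a1 varied far more. Its level had a median of 0.72 in control rats (-3.16 to 2.35), 2.58 at 600 ppm (-0.83 to 4.14), 3.56 at 1000 ppm (0.45 to 4.3) and 0.93 at 1500 ppm (-2.01 to 4.76). Of the 6 rats in each exposed group, 3, 4 and 2 were above every control rat at 600, 1000 and 1500 ppm.

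Bpifa1 was below the 75th percentile of its array in all 6 control rats and above it in 9 of the 18 exposed rats. Its level had a median of -2.7 in control rats (-3.27 to -0.25), 0.24 at 600 ppm (-3.74 to 5.85), 2 at 1000 ppm (-3.39 to 5.38) and -2.46 at 1500 ppm (-3.52 to 6.1). At 1500 ppm the female rats 36 and 37 were at 5.32 and 6.1 while the other 4 rats lay between -3.52 and -1.79, so the group split between a high and a low range. Over the 24 rats, 6 of 12 females and 3 of 12 males were above the percentile. Bpifb1 had a median level of -1.33 in control rats (-3.39 to 1.19), 0.67 at 600 ppm (-1.56 to 1.48), 1.28 at 1000 ppm (-0.21 to 2.18) and -0.12 at 1500 ppm (-2.34 to 2.48). The groups overlapped at every dose, and 2, 3 and 2 rats of the exposed groups were above every control rat.

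**Figure D1:**
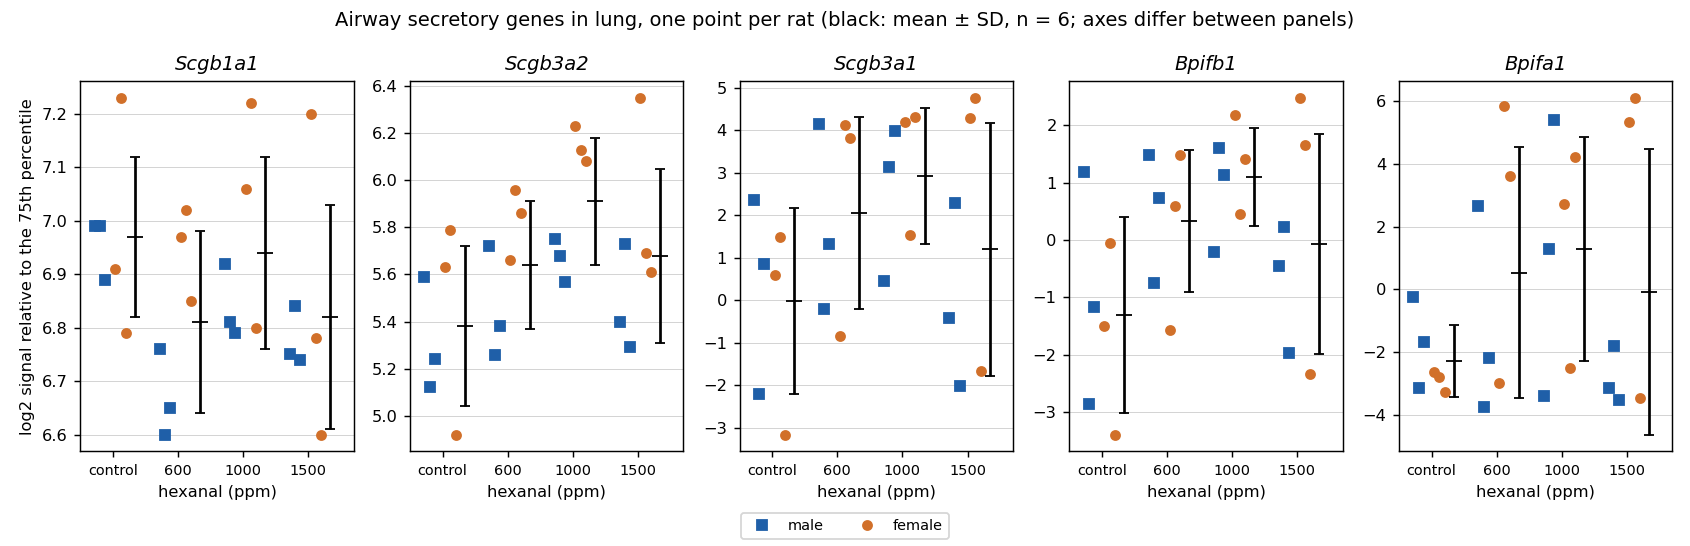
Level of each gene in every rat (y axis, log2 signal relative to the 75th percentile of the array, with its own scale in each panel) by hexanal group (x axis). Blue squares are males, orange circles are females, and black marks are the mean ± SD of 6 rats. Bpifa1 is below 0 in all 6 control rats and spans -3.52 to 6.1 at 1500 ppm, whereas Scgb1a1 stays between 6.6 and 7.23 in all 24 rats.

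To ask whether inhaled hexanal altered these genes, each dose was compared with control by limma, fitted across all 21255 genes. Calls needed a change of at least 1.5-fold and an unadjusted limma p-value under 0.05, the threshold of the study's methods. The 3 comparisons share the same 6 control arrays and are not independent of each other. Nor are the 5 genes, several of which varied together between rats. Of the 5 genes, 4 had a higher mean than control and 1, Scgb1a1, a lower mean at each dose. None was called at 600 ppm, where 0.616% of all genes were called, 2 were called at 1000 ppm, both higher, against 1.63% of all genes (1.29% higher), and none was called at 1500 ppm against 1.22%. The median difference of the 5 was 1.63, 2.39 and 1.22 on the log2 scale at 600, 1000 and 1500 ppm, and that of all genes was 0, 0 and 0.01. No difference passed an adjusted p-value of 0.05 in limma, where 0%, 0.0188% and 0.0047% of all genes did.

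At 1000 ppm the called genes were Scgb3a1 and Bpifb1. Their deviations from the group mean had r = 0.93 over the 24 rats, so these 2 calls are not independent of each other. Scgb3a1 was -0.02 ± 2.18 (SD, n = 6) in control rats and 2.93 ± 1.6 (SD, n = 6) at 1000 ppm, a 7.71-fold difference of 2.95 on the log2 scale (SE 1.27, 95% interval 0.32 to 5.57, limma adjusted p = 0.517, exact permutation p = 0.026). With slide as a fixed block the difference was 1.73 (SE 2.3, limma adjusted p = 0.999) and the call was lost. The call was also lost when control rat 2 or 23 or 1000 ppm rat 13, 31 or 33 was left out, with differences of 2.51, 2.32, 2.74, 2.69 and 2.67. Bpifb1 was -1.3 ± 1.71 (SD, n = 6) in control rats and 1.1 ± 0.85 (SD, n = 6) at 1000 ppm, a 5.25-fold difference of 2.39 (SE 0.82, 95% interval 0.7 to 4.09, limma adjusted p = 0.515, exact permutation p = 0.0152). Leaving out any 1 rat kept this call, but with slide as a fixed block the difference was 1.75 (SE 1.59, limma adjusted p = 0.999) and the call was lost.

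The other members were not called at 1000 ppm in this fit, although the methods' t-test on the same values and a fit of control and this dose alone added Bpifa1. Scgb3a2 was 5.38 ± 0.34 (SD, n = 6) in control rats and 5.91 ± 0.27 (SD, n = 6) at 1000 ppm, a difference of 0.52 (SE 0.18, limma adjusted p = 0.515, exact permutation p = 0.0238) that was under the fold threshold at 1.44-fold. With slide as a fixed block it was 0.64 (SE 0.27, limma adjusted p = 0.999), which met the fold and unadjusted p of a call. Bpifa1 had the largest difference of the 5, 3.58 (11.9-fold), with the widest interval, -0.47 to 7.62 (limma adjusted p = 0.603, exact permutation p = 0.0498). It fell to 0.77 (SE 3.05) with slide as a fixed block. Scgb1a1 differed by -0.03 with an interval of -0.24 to 0.18 (exact permutation p = 0.742).

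At 600 ppm the differences were 2.83 for Bpifa1 (interval -1.22 to 6.87), 2.08 for Scgb3a1 (-0.55 to 4.7), 1.63 for Bpifb1 (-0.07 to 3.32), 0.26 for Scgb3a2 and -0.16 for Scgb1a1. All 5 limma adjusted p-values were 0.997. At 1500 ppm the differences were smaller than at 1000 ppm for the 4 genes with a higher mean, 2.21 for Bpifa1 (interval -1.83 to 6.26), 1.23 for Bpifb1, 1.22 for Scgb3a1 and 0.3 for Scgb3a2, and the difference of Scgb1a1 was -0.15. With slide as a fixed block, the values at 1500 ppm became -4.11 for Bpifa1 (SE 3.82) and -1.2 for Scgb3a1 (SE 2.89), below control, and 0.4 for Bpifb1 (SE 1.99), 0.49 for Scgb3a2 (SE 0.34) and 0.15 for Scgb1a1 (SE 0.21), above control.

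**Figure D2:**
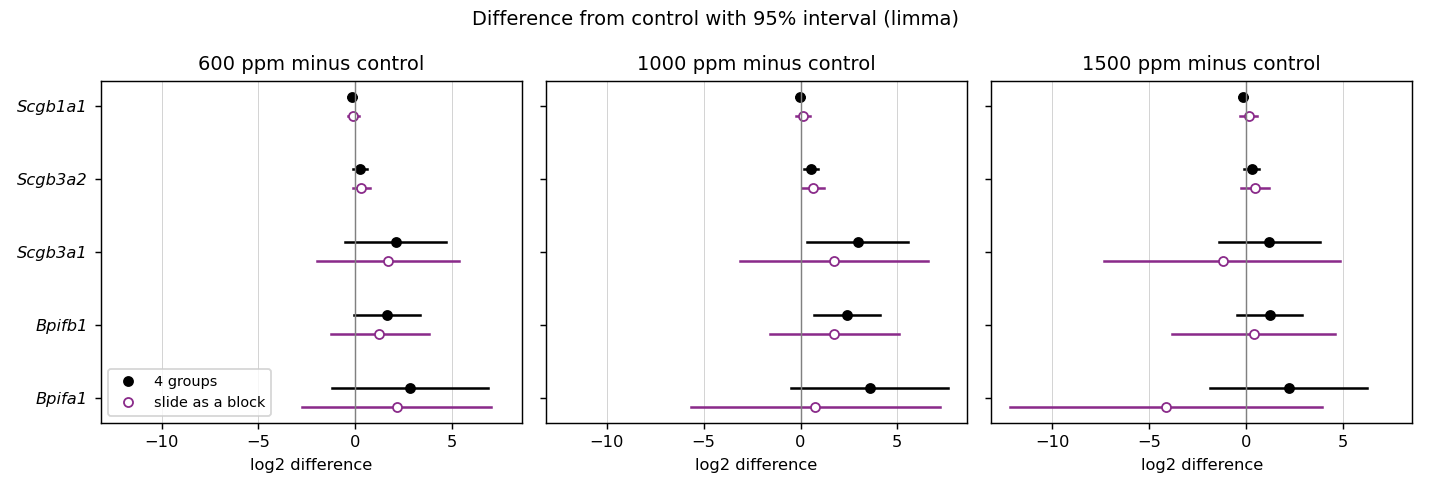
Difference of each exposed group from control (x axis, log2) for the 5 genes, with 95% intervals from limma. Filled points are the comparison of the 4 groups and open points have slide as a fixed block; the interval of Scgb3a1 at 1000 ppm runs from 0.32 to 5.57 in the first, and Bpifa1 at 1500 ppm moves from 2.21 to -4.11 in the second.

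Exact two-sided permutation tests of 6 rats against 6 gave 15 p-values, of which the design allows none below 0.00216. The 5 at 1000 ppm are given above. The exact p-values at 600 ppm ran from 0.0952 to 0.175 and those at 1500 ppm from 0.182 to 0.426. Within slides, the 600 ppm rat on the male slide of the control group exceeded its 3 control rats by 4.35 for Bpifa1, 3.81 for Scgb3a1 and 2.43 for Bpifb1. On the matching female slide the same differences were -0.1, -0.47 and 0.08. Between 600 and 1000 ppm, with 2 rats of each on a slide, Bpifa1 differed by 1.91 in males and by -4.62 in females. These within-slide values rest on 1 to 3 rats a side and have no test.

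No linear trend with dose passed the adjusted threshold, which 0.0141% of all genes did. The slope per 1000 ppm was 1.58 for Bpifa1 (SE 1.26), 0.98 for Scgb3a1 (SE 0.85), 0.95 for Bpifb1 (SE 0.56), 0.24 for Scgb3a2 (SE 0.12) and -0.07 for Scgb1a1 (SE 0.07), with adjusted limma p-values of 0.602 to 0.787. Scgb3a2 was lower in males, at a mean level of 5.48 against 5.83 in females, a difference of -0.35 (SE 0.1, limma adjusted p = 0.0181, where 24.9% of all genes passed). Each slide held 1 sex, and with slide as a random block the adjusted p-value was 0.0701. The dose effect of no member differed between the sexes in limma at an adjusted p-value of 0.05, which 0%, 0% and 5.01% of all genes passed at 600, 1000 and 1500 ppm. The largest such difference was that of Bpifa1 at 1500 ppm, where the effect in males minus that in females was -6.66 (SE 3.74, adjusted p = 0.337), with mean levels of -2.81 in the 3 males and 2.65 in the 3 females.

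The 5 genes differed widely in their spread between rats of the same group. The SD within groups was 3.56 log2 units for Bpifa1, and 3 of the 21255 genes tested had a larger one. It was 2.31 for Scgb3a1 (20 genes larger), 1.49 for Bpifb1 (77 genes larger), 0.32 for Scgb3a2 (6940 genes larger) and 0.18 for Scgb1a1 (14165 genes larger), while the median of all genes was 0.23. Between the lowest and the highest of the 24 rats, the signal differed 916-fold for Bpifa1, 243-fold for Scgb3a1, 58.6-fold for Bpifb1, 2.7-fold for Scgb3a2 and 1.55-fold for Scgb1a1.

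**Figure D3:**
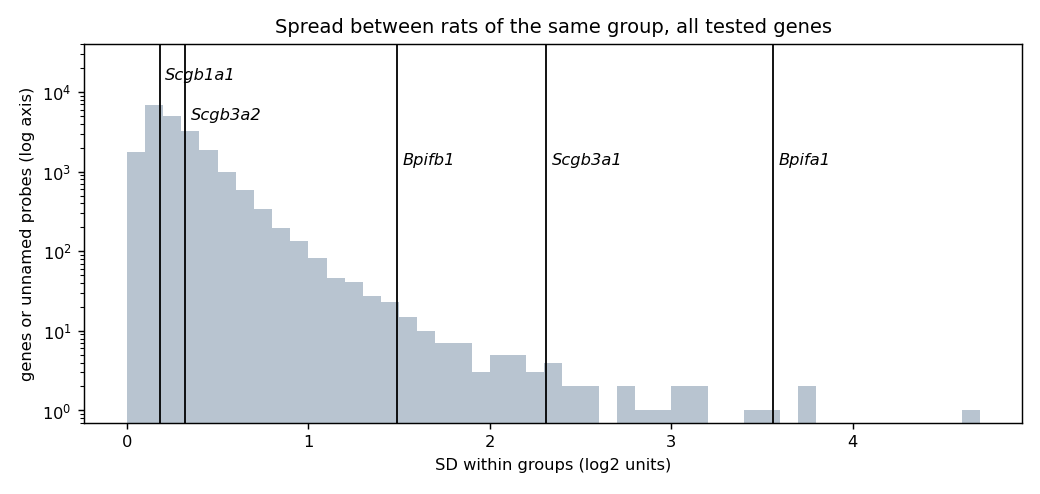
Distribution of the SD within groups (x axis, log2 units) over all 21255 genes or unnamed probes (y axis, number on a log scale, bins of equal width). Vertical lines mark the 5 genes; Bpifa1 (3.56), Scgb3a1 (2.31) and Bpifb1 (1.49) lie in the far right tail and Scgb1a1 (0.18) and Scgb3a2 (0.32) near the bulk.

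The rats that were high for 1 of the 3 variable genes were mostly high for the others. This was examined on deviations from the group mean over 24 rats for all 10 pairs, of which 7 had a permutation p-value under 0.05 (100000 resamples, smallest possible 1e-05) and a Benjamini-Hochberg adjusted p-value over the pairs of 5e-05 to 0.0209. No share of passing pairs over all genes is given. Ranked by r among all other named genes, Scgb3a1 and Bpifb1 were each 3rd for the other. Bpifa1 was 19th for Scgb3a1, and Scgb3a1 was 5th for Bpifa1. Bpifb1 was 111th for Bpifa1, and Bpifa1 was 215th for Bpifb1. Between Scgb3a2 and these 3 genes the ranks ran from 367th to 1369th, so many other genes had a higher r. Scgb3a1 and Bpifb1 had r = 0.93 (permutation p = 1e-05) and rho = 0.92 (permutation p = 1e-05), and r = 0.91 without the 2 rats farthest from the median. The correlation was 0.91 in males, 0.95 in females and 0.94 after the slide means were removed. The values for 1 sex used deviations from the group mean of both sexes. Differences between the sexes within a group therefore enter them. Scgb3a1 and Bpifa1 had r = 0.86 (permutation p = 1e-05), rho = 0.85 (permutation p = 1e-05) and r = 0.89 without the 2 farthest rats. Bpifa1 and Bpifb1, which lie near each other on chromosome 3, had r = 0.72 (permutation p = 8e-05), rho = 0.72 (permutation p = 0.00012) and r = 0.63 without the 2 farthest rats.

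Since the level of Bpifa1 spread over a high and a low range, its correlations were also taken on each side of the 75th percentile. Levels were used here with the group means kept, so differences between groups enter these values. The rats were split at the percentile, and all control rats were below it. In the 15 rats below it, the level of Bpifa1 had r = 0.71 with Scgb3a1 (permutation p = 0.00203, rho = 0.77, permutation p = 0.0014, r = 0.72 without the 2 farthest rats) and r = 0.6 with Bpifb1 (permutation p = 0.0149, rho = 0.62, permutation p = 0.0159, r = 0.57 without them). In the 9 rats above it, r with Scgb3a1 was 0.7 (permutation p = 0.0265, rho = 0.47, permutation p = 0.212) and rested on 2 rats, being 0.03 without them, and r with Bpifb1 was -0.24 (permutation p = 0.529, rho = -0.22, permutation p = 0.577, r = -0.37 without the 2 farthest rats).

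The club cell secretoglobins Scgb1a1 and Scgb3a2 had r = 0.78 (permutation p = 2e-05), rho = 0.75 (permutation p = 4e-05) and r = 0.7 without the 2 farthest rats. Ranked by r among all other named genes, Scgb3a2 was 14th for Scgb1a1, but Scgb1a1 was only 253rd for Scgb3a2. Many other genes were thus more like Scgb3a2 than Scgb1a1 was. Scgb1a1 had weaker relations to the variable genes. Its r was 0.35 with Scgb3a1 (permutation p = 0.0905, rho = 0.46, permutation p = 0.0262), 0.4 with Bpifb1 (permutation p = 0.0549, rho = 0.42, permutation p = 0.0405) and 0.25 with Bpifa1 (permutation p = 0.241, rho = 0.23, permutation p = 0.287), so that for the first and second of these only the rank correlation passed. After the slide means were removed, r with Bpifb1 was 0.48 (permutation p = 0.0164). Under quantile normalization these 3 correlations rose to 0.71, 0.71 and 0.56. Scgb3a2 stood between, with r = 0.67 with Scgb3a1 (permutation p = 0.00033, rho = 0.67, permutation p = 0.00032), 0.65 with Bpifb1 (permutation p = 0.00076, rho = 0.61, permutation p = 0.0021) and 0.49 with Bpifa1 (permutation p = 0.0146, rho = 0.44, permutation p = 0.0332). Without the 2 farthest rats these were 0.58, 0.52 and 0.4. After the slide means were removed, the last was 0.37 (permutation p = 0.0713) and no longer passed.

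**Figure D4:**
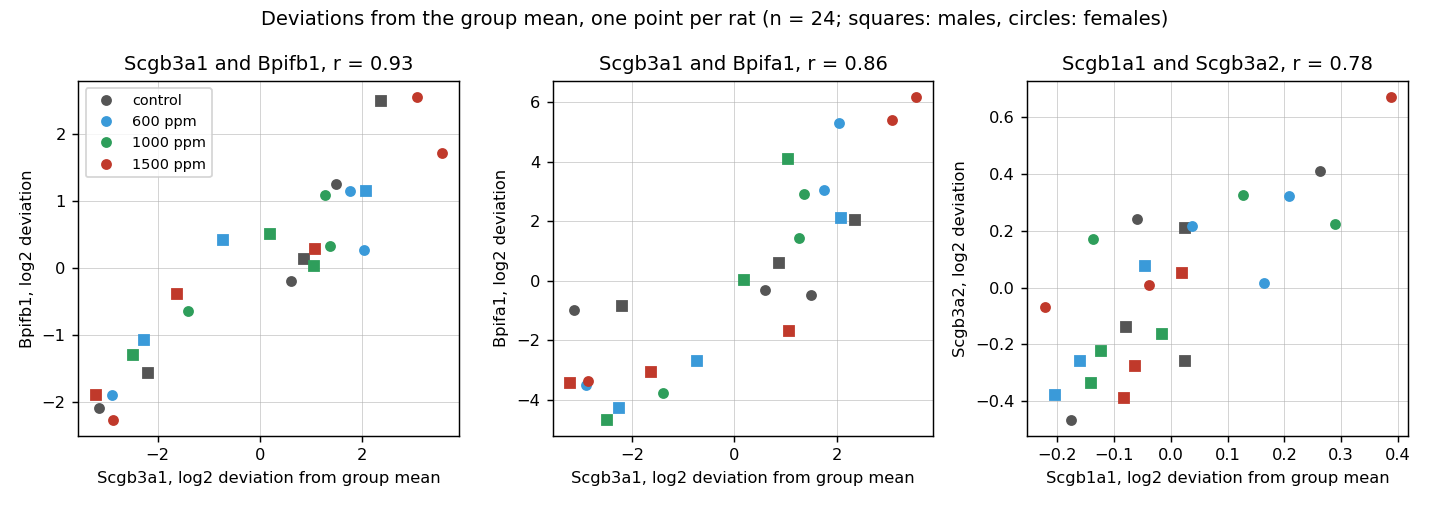
Deviation from the group mean (log2) of 1 gene against another in each of 24 rats, coloured by group, with squares for males and circles for females. Over all 24 rats r is 0.93 for Scgb3a1 and Bpifb1, 0.86 for Scgb3a1 and Bpifa1 and, over a much smaller range, 0.78 for Scgb1a1 and Scgb3a2; in Bpifa1 the control rats spread less than the exposed rats.

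The genes whose deviations were most like each member were sought among 12411 other named genes over the 24 rats, as a description. For Scgb3a1 they were Scin, an actin-severing protein (r = 0.95), and Chst9, a carbohydrate sulfotransferase (r = 0.94), and Bpifb1 ranked 3rd. For Bpifb1 they were Agr2, a disulfide isomerase of the endoplasmic reticulum (r = 0.95), and Scin (r = 0.93), and Scgb3a1 ranked 3rd. For Bpifa1 they were Klhl41 and Tmem179 (r = 0.87 for each), and Scgb3a1 ranked 5th. For Scgb3a2 they were Rsph14, a radial spoke protein of cilia, and Spaca9 (r = 0.93 for each). For Scgb1a1 they were Gpld1 (r = 0.83) and Znhit2 (r = 0.81). All these points share arrays, and the top of so long a ranking is high by selection.

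Among 23 other listed genes of airway club and goblet cells, 17 were tested. None was called at 600 ppm (0.616% of all genes), 4 were called higher at 1000 ppm (1.29% of all genes) and 1 was called lower at 1500 ppm (0.522% of all genes), with median differences of 0.04, 0.12 and 0.06. At 1000 ppm, Clca1, a secreted protein of goblet cells, differed by 2.56 (SE 1.09, limma adjusted p = 0.515), and Agr2 by 1.39 (SE 0.45, adjusted p = 0.515). Cyp2f4, a cytochrome P450 of club cells, differed by 0.89 (SE 0.35, adjusted p = 0.515), and Foxa3, a transcription factor of goblet cells, by 0.71 (SE 0.33, adjusted p = 0.543). Clca1 was well above background on 23 of 24 arrays and Foxa3 on 13, and the difference of Foxa3 was -0.36 under another background correction. The 4 values were 1.39, 0.89, 0.57 and 0.64 with slide as a fixed block, where none was called.

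At 1500 ppm, Cyp4b1, a further cytochrome P450 of the airways, had a mean level of 1.71 ± 0.15 (SD, n = 6) against 2.33 ± 0.33 (SD, n = 6) in control rats. The difference was -0.62 (SE 0.14, limma adjusted p = 0.182), and 6 of 6 rats were below every control rat, as were the groups of 0.48% of all genes that did not overlap in either direction. With slide as a fixed block it was -0.03 (SE 0.26). Of 22 other secretoglobin, BPI-fold and mucin genes listed, 7 were tested and none was called at any dose, the largest difference being 0.56 for Bpifa5 at 1000 ppm (SE 0.27, limma adjusted p = 0.558).

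Markers of other tissue parts also had calls at 1000 ppm. Of 7 heart muscle markers, 6 were tested and 3 were called higher at 1000 ppm, where 1.29% of all genes were, Tnnt2 by 2.48, Tnni3 by 2.02 and Actc1 by 1.26, and their summed level ranged from 1.71 to 5.15 in control rats, 2.31 to 5.88 at 600 ppm, 3.06 to 6.93 at 1000 ppm and 1.76 to 6.96 at 1500 ppm. Nppa, an atrial marker, was well above background on 5 of 24 arrays. Of 12 ciliated cell markers, 7 were tested, all 7 had a higher mean at 1000 ppm, as did 51.2% of all genes, with a median difference of 0.5, and Dynlrb2 (0.64) and Sntn (0.6) were called. Sntn was not called by the methods' t-test or with quantile normalization. The summed level of the 7 ciliated cell markers ranged from 6.04 to 6.46 in control rats and from 6.17 to 6.69 at 1000 ppm. Most of this sum came from Tppp3, with a mean level of 5.95 in control rats and 6.04 at 1000 ppm. The mean level of the 7 markers varied more, from 0.63 to 1.74 in control rats and from 1.09 to 2.02 at 1000 ppm. None of the 3 called heart muscle and 2 called ciliated cell markers was called with slide as a fixed block. Cnn1 of smooth muscle was called at 1000 ppm (0.6, but 0.3 and not called with normexp background correction). Comp of cartilage was called at 600 ppm (0.6), and it was not called with slide as a fixed block (0.56) or with normexp (0.23). No marker of basal cells, alveolar cells or epithelia in general was called at any dose.

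Over the 24 rats, the mean of each marker list was set against each member, 50 relations in all. Only the group means were removed, and neither sex nor slide was accounted for. The mean of the 17 other club and goblet cell genes had r = 0.9 with Bpifb1 (permutation p = 1e-05, rho = 0.91, permutation p = 1e-05, r = 0.88 without the 2 farthest rats, Benjamini-Hochberg adjusted p = 0.000125) and r = 0.8 with Scgb3a1 (permutation p = 1e-05, rho = 0.84, permutation p = 1e-05, r = 0.75 without them, adjusted p = 0.000125). The basal cell mean had r = 0.73 with Bpifa1 (permutation p = 5e-05, rho = 0.63, permutation p = 0.00101, r = 0.62 without the 2 farthest rats, adjusted p = 0.000278). The heart muscle mean had r = 0.8 with Scgb3a1 (permutation p = 2e-05, rho = 0.78, permutation p = 2e-05, r = 0.77 without the 2 farthest rats, Benjamini-Hochberg adjusted p = 0.000143) and r = 0.78 with Bpifb1 (permutation p = 1e-05, rho = 0.76, permutation p = 4e-05, r = 0.72 without them, adjusted p = 0.000125). It had r = 0.69 with Bpifa1 (permutation p = 0.00026, rho = 0.71, permutation p = 0.00017, r = 0.58 without the 2 farthest rats, adjusted p = 0.000929), 0.33 with Scgb3a2 (permutation p = 0.121, rho = 0.3, permutation p = 0.16, adjusted p = 0.167) and 0.0 with Scgb1a1. The ciliated mean had r = 0.87 with Scgb3a2 (permutation p = 1e-05, rho = 0.87, permutation p = 1e-05, r = 0.84 without the 2 farthest rats, adjusted p = 0.000125) and 0.56 to 0.76 with the other 4 members. The type II mean had r = -0.68 with Bpifa1 (permutation p = 0.00015, rho = -0.7, permutation p = 0.00021, r = -0.65 without the 2 farthest rats, adjusted p = 0.000682) and -0.62 to -0.02 with the other 4 members. The cartilage mean had r between -0.21 and 0.38 and the mean of markers shared by epithelia r between -0.18 and -0.05. The part of any of these tissue markers in the differences at 1000 ppm was not tested.

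**Figure D5:**
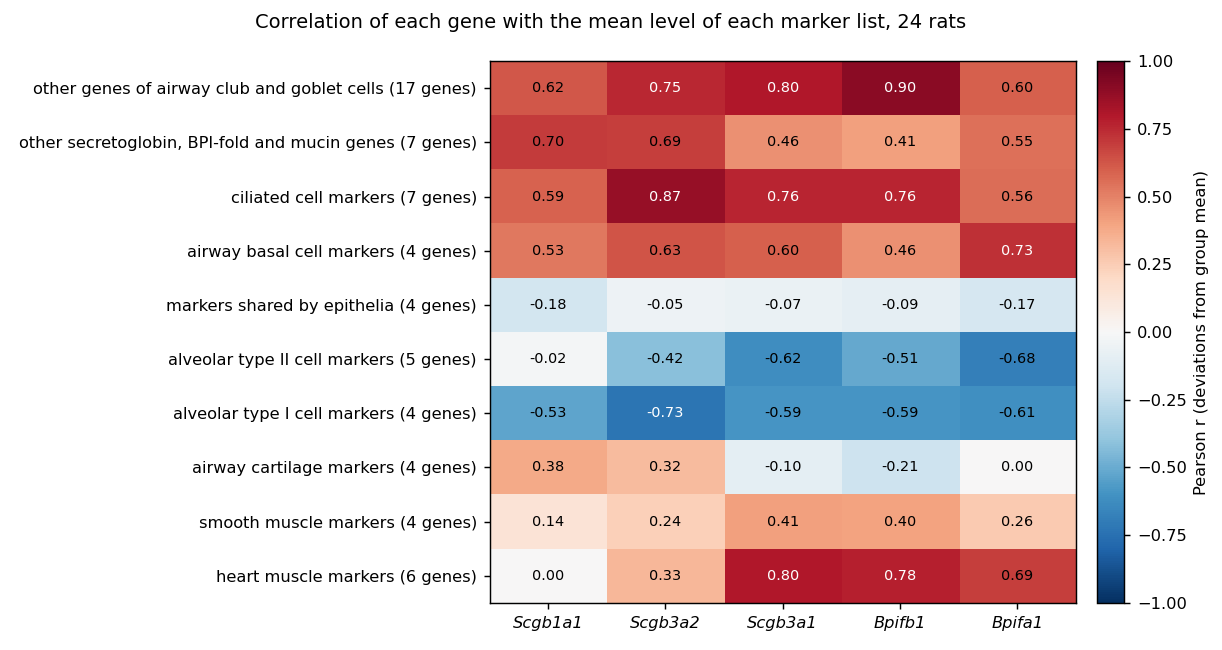
Pearson correlation over 24 rats (colour and printed value) of each gene (columns) with the mean level of each marker list (rows, number of tested genes in brackets), both as deviations from the group mean. The heart muscle row is high for Scgb3a1 (0.8), Bpifb1 (0.78) and Bpifa1 (0.69) and 0.0 for Scgb1a1, the ciliated row is highest for Scgb3a2 (0.87), and the 2 alveolar rows are negative throughout.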

How the data were processed

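Lung RNA of 24 rats was hybridised to one-colour Agilent arrays. The authors deposited intensities of Agilent Feature Extraction 11.5.1.1, which subtracts background and detrends within each array, and a table of the whole series with intensities that equal the processed signal within 0.1% for at least 98.24% of probes on every array. These intensities were not scaled between arrays. Groups and sex came from the labels, and no column of another sample was found (0).

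Control spots were left out. The other 42877 spots of each array were averaged into 30367 probes after 266 to 370 outlier spots were dropped, and of these probes 18355 were matched by accession to 15443 symbols of RefSeq (GRCr8). Log2 processed signals were centred on each array's 75th percentile. A probe was kept (23616 were) if 5 or more of the 6 arrays in some group had it well above background, with the brightest probe for each gene (21255 tested, named or not). The software was R 4.3.3, limma 3.58.1, data.table (version 1.17.8), Python 3.11.15, scipy 1.17.1 and numpy 2.4.6. Limma tests used lmFit and eBayes on all 24 arrays, with Benjamini-Hochberg adjustment over all 21255, and the scripts were tested on simulated data. The labels number the rats as separate animals. The number of arrays limits the precision.

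The members and lists were chosen with earlier results of these data known. The genes named are all members, the called genes of the 2 related lists (where under 3 of a list were called, the 3 largest), the 2 genes most like each member, and called markers of other cell types. Some markers of other cell types that were not called are named as well. Of the relatives, only the largest difference is given. Alternatives tried were other background correction, scaling, filters, probe choice, the unscaled table, the methods' t-test, fits of 1 dose, slide as a block, array weights and leaving out each rat.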

Additional observations from a re-analysis of the deposited data

How the results depend on the processing

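Leaving out 1 rat at a time gave 0 to 1 called members at 600 ppm, 1 to 3 at 1000 ppm, 0 to 1 at 1500 ppm and 1 to 4 over all doses, against 0, 2, 0 and 2 with all rats. The count at 1000 ppm and that over all doses were each 1 with slide as a fixed or a random block. With the fixed block this call was Scgb3a2, which was not called without it, and both original calls were lost. With the random block it was Bpifb1. With array weights or with the unscaled series table, 1 member was called at 600 ppm, Bpifb1 in both (1.91 and 1.7), and the series table gave 4 calls over all doses. The count of members that differed between the sexes, 1, was 0 with slide as a random block and with the series table and 1 to 2 with a rat left out. No member had a trend or a sex difference of the dose effect that passed under any alternative run.

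The small difference of Scgb1a1 at 1000 ppm (-0.03) turned to 0.15 with normexp background correction, 0.01 with quantile normalization, 0.07 with the series table, 0.13 with slide as a fixed block and 0.02 without control rat 22 (-0.09 to 0.02 over all rats left out). At 1500 ppm it turned to 0.02 with normexp and 0.15 with slide. With slide as a fixed block, the differences at 1500 ppm of Scgb3a1 and Bpifa1 turned to -1.2 and -4.11, and the slopes per 1000 ppm turned to 0.09 for Scgb1a1, -0.53 for Scgb3a1 and -2.29 for Bpifa1. The slope of Scgb1a1 was 0.04 with normexp. The difference of males from females turned to 0.02 for Scgb1a1 with the series table and to 0.05 for Bpifb1 without 1500 ppm rat 36 (-0.48 to 0.05 over all rats left out). Foxa3 at 1000 ppm was -0.36 with normexp. The cause was not tested. At 1000 ppm the median of all genes shifted by -0.12 with normexp and by 0.11 with the series table. No paired analysis was possible because the groups share no replicate numbers, and slide was used as a block instead. Of the called club and goblet cell genes, Foxa3 and Clca1 were not well above background on every array.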
